A study of Mus musculus with 20 samples.

Results

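The effect of homozygous Runx2 loss shared by 2 cultured mouse bone marrow populations was measured as the mean of the homozygous-minus-wild-type difference in each of them. All RNA libraries labelled homozygous or wild type were taken, which gave 12 of the 20 samples of the series. They were 3 wild-type (WT) and 3 homozygous (hom) libraries of HSC, and 3 WT and 3 hom libraries of HPC. HSC are hematopoietic stem cells sorted as lineage-negative, cKit+, Sca1+, CD201+ and CD150+, and HPC are progenitors with the same lineage, cKit and Sca1 phenotype that lack CD201 and CD150. Both were cultured, and polyadenylated RNA was sequenced. Heterozygous (het) libraries, 3 per population, are given as levels beside the others and took no part in the comparison.

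The hom groups carry a Runx2 knockout on both alleles and the WT groups on none. The series text names Runx2-flox mice and CRISPR as ways of removing the gene, and the labels do not say which way applies to a given library, nor whether replicates are separate animals or cultures. Each p-value thus weighs a difference against the variation among libraries, and that variation may be technical only. In whole populations, fewer cells of a type and less RNA per cell cannot be told apart.

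Runx2 belongs to the RUNX family of transcription factors, which bind DNA through the Runt domain together with the partner protein CBFB. Runx2 is best known as the master regulator of bone formation, whereas Runx1 and Runx3 are the family members with established roles in blood stem cells and T cells. Stem cells in culture both divide and begin to differentiate, so markers of lymphoid, myeloid and dividing cells were followed beside those of stem cells.

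The 12 libraries held 18050298 to 23417608 counts, and 3 counts, the limit that a count of 0 allows, equalled 0.128 to 0.166 CPM (counts scaled to library size). Mitochondrial genes took 1.54 to 2.59% of counts. All HSC libraries held the Y-linked Ddx3y at 121 to 167 CPM and all HPC libraries held it at 0, so population and sex go together and cannot be told apart, while WT and hom libraries of a population share a sex. HSC hom replicates 1 and 3 stood farthest apart among replicate pairs, with a root mean square log2 difference of 0.465 over the genes tested, against 0.232 to 0.345 in every other pair. Of the sort markers, Procr (CD201), Slamf1 (CD150) and Kit were detected in every library. Ly6a, which encodes Sca1, was listed at 0 in all 18 RNA libraries, so that marker could not be checked. The WT and hom libraries also held 0 counts of Atf4, Rrm2, Csf2ra, Fcgr3 and Ifit3. Whether a 0 for these or other genes means no RNA or comes from counting was not tested.

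Runx2 itself checked the genotype labels. The gene lies on mm10 chromosome 17 from 44495987 to 44814797. Its level was 119, 126 and 122 CPM in the WT HSC libraries and 25.4, 28.0 and 24.6 CPM in the hom HSC libraries. In HPC it was 122, 128 and 128 CPM in WT and 23.5, 22.4 and 24.6 CPM in hom. Every hom library lay far below every WT library in both populations. Runx2 fell by 2.33 ± 0.05 (SE) on the log2 scale in the average, to 20.0% of WT (adjusted p = 1.07e-14), and the fall was -2.23 ± 0.07 in HSC and -2.42 ± 0.07 in HPC. The het libraries held 81.9 to 89.5 CPM in HSC and 99.3 to 108 CPM in HPC, between the other genotypes.

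The other Runt-domain genes and the shared partner moved little. Runx1, the family member required for the emergence of blood stem cells, rose by 0.21 ± 0.04 on the log2 scale (adjusted p = 0.00862). Its levels were 165 to 186 CPM in WT HSC and 186 to 202 CPM in hom HSC, which overlap, and 238 to 252 CPM in WT HPC and 290 to 321 CPM in hom HPC, which do not overlap. Runx3 changed by -0.07 ± 0.05 (adjusted p = 0.461) and Cbfb by -0.04 ± 0.05 (adjusted p = 0.756), and neither passed the test. Of 18 tested RUNX factors and partners, Runx1 was the only one that rose and Runx2 the only one that fell. The list's median log2 fold change was -0.01, beside -0.02 over all genes tested. The window of 5 Mb on either side of Runx2 held 95 tested genes, of which 4 were called, Runx2 included. This was 4.21%, beside 6.38% of all tested genes. Supt3, a transcription cofactor gene whose body overlaps that of Runx2, rose by 0.31 ± 0.07 (adjusted p = 0.0127), and counting took no account of strand. Enpp4, an ectonucleotidase family member, fell by 0.25 ± 0.05 on the log2 scale (adjusted p = 0.00289), and the predicted gene Gm41590 rose by 1.98 ± 0.33 (adjusted p = 0.00132).

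Of 15102 genes tested, 963 were called in the average at an adjusted p under 0.05, which is 6.38% of them. 478 rose (3.17%) and 485 fell (3.21%). The sizes were mostly modest, with 132 of the higher and 104 of the lower genes past a log2 change of 1. Of the called genes, 449 higher and 468 lower ones had the same sign in HSC and HPC, and the average of the others had the sign of the larger change. A call on an average favours genes with the same sign in both populations, so these counts are no measure of agreement between them. Leaving out HPC WT replicate 3 gave 641 calls, and leaving out HSC hom replicate 1 gave 1510.

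An average can pass because of 1 population, so a second test asked for a change in both, by taking the larger of the 2 population p-values. It called 36 genes, 0.238% of those tested, of which 16 rose (0.106%) and 20 fell (0.132%). In all 36 the hom and WT libraries did not overlap in either population, which held for 647 of all tested genes (4.28%). A call in both populations nearly requires this, so the absence of overlap is no further support for these genes. Fitted in the same model, 884 genes were called in HSC (5.85%; 2.41% higher and 3.44% lower) and 639 in HPC (4.23%; 2.13% higher and 2.1% lower). Each of these counts takes 1 population whatever the other did, and the sets overlap. Of the genes called in the average, 59 higher and 85 lower ones were called in each population taken singly. Absence of overlap between hom and WT libraries is common in a single population, at 25.1% of tested genes in HSC and 25.5% in HPC. Fitted apart, HSC libraries had the wider spread, with a common dispersion of 0.0137 beside 0.00477 in HPC. These separate fits called 155 genes in HSC and 1192 in HPC, and the test for both populations then called 14, 13 of them among the 36. The count of 36 also became 23, 16 or 21 without HSC WT replicate 1, 2 or 3, 62, 23 or 98 without HSC hom replicate 1, 2 or 3, and 20 or 15 without HPC WT replicate 1 or 3. Across all tested genes, the log2 fold changes of HSC and HPC, which share no library, had a Pearson r of 0.32 and a Spearman rho of 0.16, where genes are not independent replicates.

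**Figure D1:**
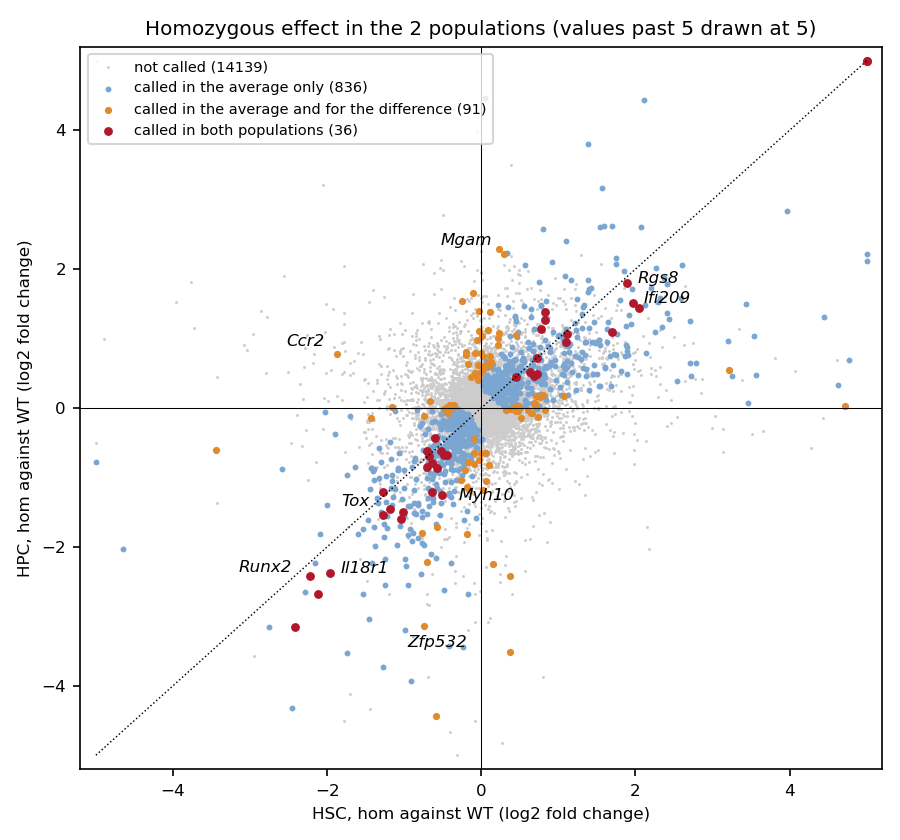
Each point is 1 of 15102 tested genes, with the log2 fold change of hom against WT in HSC on the horizontal axis and in HPC on the vertical axis; values past 5 are drawn at 5 and the dotted line marks equal change. The 36 genes called in both populations (dark red) lie on the same side of 0 in both, with Myh10 and Hdgfl3 also called for a difference, and genes called both in the average and for a difference between populations (orange) lie near 1 of the axes or off the line, such as Ccr2, at -1.88 in HSC and 0.78 in HPC.

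Among genes at 5 CPM or more that were named, the largest falls shared by both populations, beside Runx2, included those of 2 genes of lymphoid cells. Il18r1, on chromosome 1 from 40465552 to 40500854, encodes the ligand-binding chain of the interleukin-18 receptor. It was at 11.2, 11 and 8.06 CPM in WT HSC and at 2.48, 2.95 and 2.30 CPM in hom HSC. In HPC it was at 11.8, 11.2 and 10.8 CPM in WT and at 2.23, 1.56 and 2.67 CPM in hom. No hom library reached the lowest WT library, and the average fall was -2.17 ± 0.14 (adjusted p = 1.89e-07). The het libraries were in between, at 4.85 to 5.64 CPM in HSC and 6.67 to 7.60 CPM in HPC.

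Tox, on chromosome 4 from 6686353 to 6991557, encodes a nuclear protein needed for the development of T cells and innate lymphoid cells. Its levels were 21.2, 15.9 and 16.2 CPM in WT HSC against 7.17, 7.12 and 7.66 CPM in hom HSC. WT HPC held 15.9, 17.6 and 16.5 CPM and hom HPC 4.85, 5.63 and 6.74 CPM. The WT levels of both populations overlapped and the hom levels were below all of them. Tox fell by 1.41 ± 0.10 on the log2 scale (adjusted p = 6.59e-07). Het libraries held 11.1 to 12.2 CPM in HSC and 11.6 to 13.8 CPM in HPC, again between the other genotypes.

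Other genes fell in both populations too, and they form no list that was tested. Myh10, the heavy chain of non-muscle myosin IIB, was at 130, 140 and 141 CPM in WT HSC and at 86.0, 106 and 96.4 CPM in hom HSC. In HPC the WT libraries held 97.6, 84.8 and 91.4 CPM and the hom libraries 34.4, 41.9 and 38.2 CPM. The groups did not overlap, and the fall was larger in HPC (-1.26 ± 0.09) than in HSC (-0.51 ± 0.08), with an adjusted p of 0.006 for the difference. Itsn1, an endocytic scaffold, was at 237 to 240 CPM in WT HSC and 130 to 167 CPM in hom HSC, and at 61.0 to 63.2 CPM in WT HPC and 35.7 to 44.4 CPM in hom HPC. Its fall of -0.66 ± 0.06 (adjusted p = 8.03e-06) was of like size in both, at -0.71 ± 0.08 and -0.62 ± 0.09. Nbea, a large scaffold protein that binds protein kinase A, fell by 1.32 ± 0.15 on the log2 scale (adjusted p = 7.24e-05), from 22.6, 29.2 and 23.2 to 9.80, 11.9 and 14.8 CPM in HSC and from 10.2, 11.6 and 9.94 to 3.08, 5.05 and 2.37 CPM in HPC. Stxbp6, which binds the SNARE membrane fusion machinery, changed by -0.68 ± 0.08, and Dnajc6, the clathrin-uncoating protein auxilin, by -0.57 ± 0.05. Tjp1, the junction protein ZO-1, changed by -0.52 ± 0.06. The guanine nucleotide exchange factor Mcf2 changed by -1.25 ± 0.14 and the GTPase-activating protein Arhgap42 by -1.24 ± 0.16.

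The remaining genes that fell in both belonged to other families. Slc17a8, the vesicular glutamate transporter VGLUT3, was low throughout, at 2.17 to 2.51 CPM in WT HSC and 0.379 to 0.527 CPM in hom HSC, and at 2.54 to 3.63 CPM in WT HPC and 0.252 to 0.457 CPM in hom HPC. Its fall of -2.79 ± 0.22 (adjusted p = 1.87e-06) was the largest fall among the 36 on the log2 scale, and no hom library overlapped a WT library. H2-Eb1, an MHC class II beta chain, fell by 2.40 ± 0.27 on the log2 scale, from 2.10 to 4.33 down to 0.505 to 1.03 CPM in HSC and from 6.71 to 8.07 down to 0.571 to 2.03 CPM in HPC. It is annotated on other contigs as well, so its count is uncertain. Hemgn, a nuclear protein of erythroid and other blood cells, changed by -0.56 ± 0.05, and Mmp14, a membrane-anchored matrix metalloproteinase, by -1.32 ± 0.16. Cd276, the immune checkpoint ligand B7-H3, changed by -0.72 ± 0.10 and Cd72, a B-cell co-receptor, by -0.58 ± 0.07, and the exons of both overlap another gene. Hdgfl3, of the hepatoma-derived growth factor family, changed by -0.92 ± 0.05, more in HPC than in HSC (adjusted p = 0.0140 for the difference), with 14.7% of its exon length shared with another gene. Slc35f2, a solute carrier, and Fkbp9, a prolyl isomerase of the endoplasmic reticulum, changed by -0.77 ± 0.10 and -0.72 ± 0.07.

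Among the genes called in both populations with at least 5 CPM in the higher group, Rgs8 had the largest rise. Rgs8, a regulator of G-protein signalling on chromosome 1 from 153652959 to 153697669, was at 1.43, 1.07 and 1.80 CPM in WT HSC and at 5.31, 5.81 and 4.93 CPM in hom HSC. In HPC it was at 1.84, 2.29 and 1.69 CPM in WT and at 6.62, 7.14 and 6.59 CPM in hom. The lowest hom library was well above the highest WT library in each population, and the rise was 1.85 ± 0.15 on the log2 scale (adjusted p = 2.45e-06). Het libraries fell between, at 2.68 to 3.75 CPM in HSC and 4.05 to 6.25 CPM in HPC.

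Ifi209 is one of the IFI200 genes, a cluster on chromosome 1 whose proteins sense nucleic acids. It was much lower in WT HSC, at 1.23, 2.18 and 1.65 CPM, than in WT HPC, at 36.0, 37.5 and 35.7 CPM. The hom libraries held 8.46, 6.40 and 5.41 CPM in HSC and 128, 93.3 and 92.0 CPM in HPC. Both populations thus rose from very different starting levels without overlap, by 1.98 ± 0.23 in HSC and 1.52 ± 0.14 in HPC on the log2 scale, and the difference between these did not pass (adjusted p = 0.41). Het HSC stayed at 1.03 to 2.98 CPM, around the WT range, whereas het HPC held 79.1 to 92.8 CPM. Tlr7, the X-linked receptor for single-stranded RNA, rose by 1.09 ± 0.12 (adjusted p = 5.69e-05), from 7.17, 6.95 and 5.38 to 18.5, 10.9 and 12.7 CPM in HSC and from 19.7, 23.0 and 19.1 to 48.7, 39.5 and 41.3 CPM in HPC. Pld4, an exonuclease of the endolysosome that is annotated on another contig as well, rose by 0.73 ± 0.08. Tyrobp, the signalling adaptor DAP12, rose by 0.57 ± 0.07, and Tifab, a TIFA-related inhibitor of innate immune signalling, by 1.74 ± 0.17.

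Itga9, the integrin alpha-9 chain, rose by 0.96 ± 0.09, from 7.06, 7.69 and 8.91 to 12.7, 14 and 13.9 CPM in HSC and from 4.62, 5.53 and 4.97 to 10.3, 10.9 and 12.1 CPM in HPC. Every hom library was above every WT library of its population. Ly9, a SLAM-family receptor, rose by 0.61 ± 0.07, and Ralb, a Ras-related GTPase, by 0.57 ± 0.05. Ramp1, the accessory protein of the CGRP receptor, rose by 0.45 ± 0.06, the smallest change among the 36. Het HPC means of Ramp1, Tyrobp and Pld4 (119.6, 76 and 67.32 CPM) were above the hom HPC means (106.2, 67.05 and 50.55 CPM). In HSC the het means of these genes were below the hom means.

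Commd10, a COMM-domain protein of endosomal sorting, was at 25.6, 25.9 and 25.5 CPM in WT HSC and at 53.1, 46.4 and 37.0 CPM in hom HSC. It was at 21.5, 22.5 and 23.7 CPM in WT HPC and at 54.4, 58.9 and 49.9 CPM in hom HPC. Hom lay above WT throughout, and the rise was 1.05 ± 0.08 (adjusted p = 7.32e-07). Here het libraries were as high as hom ones, at 46.1 to 53.7 CPM in HSC and 50.0 to 59.5 CPM in HPC. The axonemal dynein gene Dnah8 rose by 1.02 ± 0.13 and the monocarboxylate transporter family gene Slc16a12 by 1.10 ± 0.12. Sva, which encodes seminal vesicle antigen, had 0 counts in all 6 WT libraries and was at 1.19, 2.57 and 2.30 CPM in hom HSC and at 1.43, 1.25 and 1.71 CPM in hom HPC. Taking 3 counts per WT library as the limit, its hom mean was 14.4-fold that limit in HSC and 10.7-fold in HPC. The limit is scaled by total counts and the hom mean by normalization factors as well, so these ratios are approximate and no lower bounds. Het libraries held it too, at 1.44 to 2.66 CPM in HSC and 1.12 to 2.36 CPM in HPC. The predicted gene Gm32920 was also at 0 counts in all WT libraries. Its hom mean was 9.30-fold the limit in HSC and 7.70-fold in HPC, which are approximate ratios as well.

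Of the 36 genes, Slc17a8, Runx2, Il18r1, Tox, Hdgfl3, Itsn1, Commd10, Ifi209, Rgs8, Gm32920 and Sva were called in both populations in all 21 alternative analyses. Cd72 was called in 8 of them, and Cd276, Dnah8 and Slc16a12 in 9. 8 of the 36 lie on chromosome 1, which held 879 of the 15102 tested genes, and whether this exceeds that share was not tested.

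**Figure D2:**
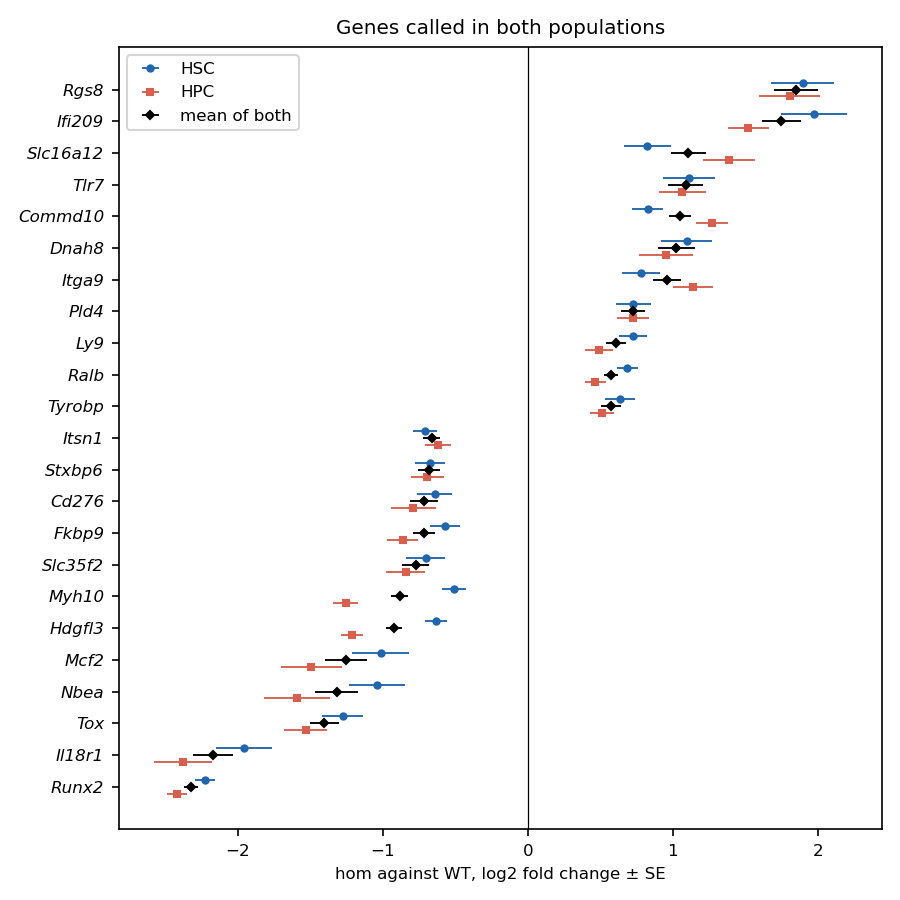
Log2 fold change of hom against WT (horizontal axis, ± SE) for 23 genes called in both populations, with HSC (blue circles), HPC (red squares) and their mean (black diamonds). The mean runs from -2.33 for Runx2 to 1.85 for Rgs8, and the gap between HSC and HPC is widest relative to the error for Hdgfl3 and Myh10.

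**Figure D3:**
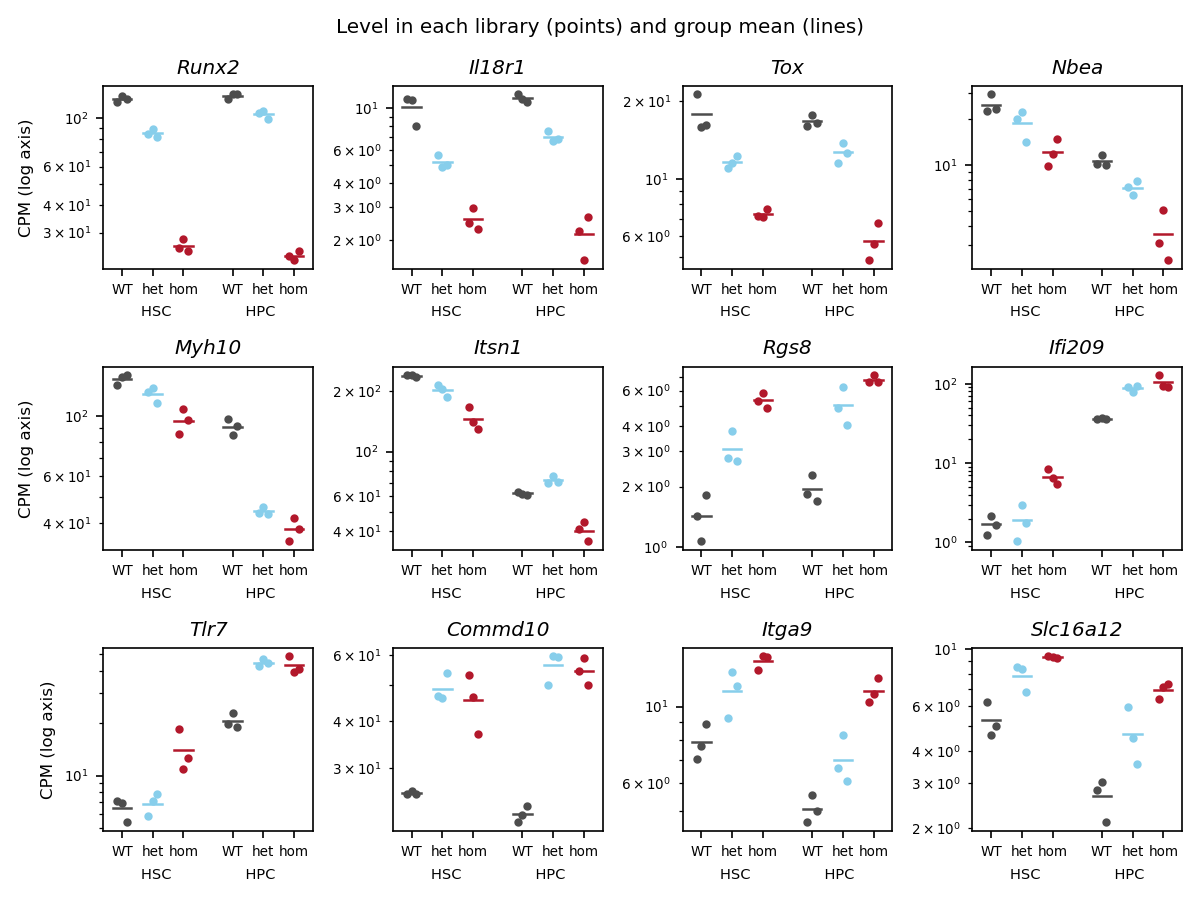
CPM on a log axis in each library (points) of 12 genes called in both populations, with lines at the mean of the 3 libraries of a group. Hom libraries (red) lie on the same side of WT libraries (grey) in both populations without overlap, which was a condition of choosing them. Het libraries (light blue) lie between for Runx2, Il18r1, Tox and Rgs8 and at the hom level for Commd10. This order does not hold for every gene. The Itsn1 mean in HPC is 71.9 CPM in het, above 62.0 CPM in WT. For Tlr7 in HSC the het mean of 6.9 CPM is near the 6.5 CPM of WT.

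The 250 bases before the start site are shown for 3 genes that fell and 3 that rose in both populations, because they let the Runt-domain core be read beside the direction of change. Sequences are from RefSeq on GRCm38.p6 (the mm10 build), on the strand of the gene, in lower case. Capitals mark TGTGGT or TGCGGT, the cores bound by RUNX proteins, or their complements ACCACA and ACCGCA, found on either strand. Where RefSeq lists several promoters of a gene the most upstream one is printed. Runx2 is on the minus strand (chr17:44814628-44814877), Il18r1 on the plus strand (chr1:40465302-40465551), Nbea on the minus strand (chr3:56183702-56183951), Rgs8 on the plus strand (chr1:153652787-153653036), Ifi209 on the plus strand (chr1:173630609-173630858) and Slc16a12 on the minus strand (chr19:34747329-34747578).
Runx2: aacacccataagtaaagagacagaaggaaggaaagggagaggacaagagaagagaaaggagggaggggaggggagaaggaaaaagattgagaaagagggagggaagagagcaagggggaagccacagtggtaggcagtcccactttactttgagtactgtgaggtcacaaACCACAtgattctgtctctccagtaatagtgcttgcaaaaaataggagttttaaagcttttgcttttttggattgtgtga
Il18r1: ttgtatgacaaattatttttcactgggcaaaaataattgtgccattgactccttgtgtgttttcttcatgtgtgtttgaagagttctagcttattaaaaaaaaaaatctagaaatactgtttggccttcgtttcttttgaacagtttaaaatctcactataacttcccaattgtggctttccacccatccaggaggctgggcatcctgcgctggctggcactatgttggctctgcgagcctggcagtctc
Nbea: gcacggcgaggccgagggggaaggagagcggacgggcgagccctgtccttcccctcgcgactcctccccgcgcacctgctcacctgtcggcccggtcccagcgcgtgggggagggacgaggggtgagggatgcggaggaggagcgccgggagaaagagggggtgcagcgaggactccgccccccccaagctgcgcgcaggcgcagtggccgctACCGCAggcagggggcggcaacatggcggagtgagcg
Rgs8: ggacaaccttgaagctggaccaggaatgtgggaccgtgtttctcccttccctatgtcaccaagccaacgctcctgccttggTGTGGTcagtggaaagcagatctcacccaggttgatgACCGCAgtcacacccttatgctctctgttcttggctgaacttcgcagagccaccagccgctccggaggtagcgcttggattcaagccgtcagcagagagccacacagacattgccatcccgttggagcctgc
Ifi209: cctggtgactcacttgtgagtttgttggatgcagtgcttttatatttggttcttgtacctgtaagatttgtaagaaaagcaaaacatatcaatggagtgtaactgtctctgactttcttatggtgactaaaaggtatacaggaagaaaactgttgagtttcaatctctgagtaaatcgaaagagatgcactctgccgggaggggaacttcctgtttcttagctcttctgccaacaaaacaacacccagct
Slc16a12: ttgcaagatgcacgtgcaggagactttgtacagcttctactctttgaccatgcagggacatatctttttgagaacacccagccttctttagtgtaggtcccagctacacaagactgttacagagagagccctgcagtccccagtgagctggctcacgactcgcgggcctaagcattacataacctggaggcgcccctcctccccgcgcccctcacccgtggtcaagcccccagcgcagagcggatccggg

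In these windows Runx2 and Nbea, which fell, held 1 core each, Rgs8, which rose, held 2, and Il18r1, Ifi209 and Slc16a12 held none. Promoters were matched by symbol for 11356 of the 15102 tested genes, and 21.2% of these had either core, 13.8% TGTGGT and 8.50% TGCGGT. Of the called genes that matched, 82 of 350 higher ones (23.4%) and 84 of 371 lower ones (22.6%) had either core. These shares of either core were near that of all promoters in both directions. Taken singly, TGTGGT was in 17.7% of the higher and 14.6% of the lower genes, and TGCGGT in 6.57% and 9.16%. Whether these differ from the shares of all promoters was not tested. Among the genes called in both populations, 5 of 19 that fell and 1 of 11 that rose had one. A match is a description and not a site, and no match says only that these letters are not in the window.

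Gene lists for the lineages and processes of cultured progenitors are described by how many of their tested members were called. Across 31 lists, 547 of 648 distinct genes were tested and 111 were called. Over all tested genes 6.38% were called, 3.17% higher and 3.21% lower. The lists were chosen with earlier results of these data known, so a high called share in a list is a description and no test.

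The T-cell commitment list had a median log2 fold change of -0.09, at -0.004 in HSC and -0.36 in HPC. The sign was positive for 6 of its 14 tested members and negative for 8. Up to 3 members rose in alternatives other than leaving out 1 library. In the main fit the called members only fell: 5 of 14 fell and none rose. Beside Tox these were Thy1, the surface glycoprotein CD90, at -1.29 ± 0.11 (adjusted p = 8.13e-06), Tcf7, the transcription factor TCF-1 that starts the T-cell program, at -1.18 ± 0.14 (adjusted p = 9.53e-05), the Notch target Hes1 at -1.35 ± 0.30 (adjusted p = 0.012), and Cd7. Tcf7 was at 10.2, 13.9 and 10.4 CPM in WT HSC and 6.81, 5.90 and 5.22 CPM in hom HSC. In HPC it was at 9.05, 8.27 and 8.25 CPM in WT and 3.20, 4.22 and 2.16 CPM in hom. Hom and WT libraries did not overlap for Tcf7 or Thy1 in either population. Of natural killer and innate lymphoid genes 3 of 12 fell and none rose. They were Il18r1, Il18rap, the second chain of the interleukin-18 receptor, at -0.28 ± 0.04 (adjusted p = 0.00091), and Gzmb, the granzyme B protease, at -1.14 ± 0.26 (adjusted p = 0.024). The Gzmb call was lost in 7 of 12 fits that left out 1 library. Of B-cell genes 2 of 7 fell (Cd72 and Spib) and Siglecg, an inhibitory lectin receptor, rose by 0.97 ± 0.12. The Spib call was lost in 9 of the 12 fits. The T-cell receptor subunit Cd3e and the B-cell gene Ms4a1 were at 0 counts in all 18 libraries. As for Ly6a, this does not show that they were not expressed.

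Genes of lymphoid-primed progenitors went both ways, with 4 of 17 higher and 2 lower. Flt3, the cytokine receptor of lymphoid-primed and dendritic progenitors, was at 167 to 196 CPM in WT HSC and 217 to 231 CPM in hom HSC, and at 172 to 214 CPM in WT HPC and 242 to 293 CPM in hom HPC. It rose without overlap by 0.39 ± 0.06 (adjusted p = 0.00114), as did Cd48, a SLAM-family ligand that separates multipotent progenitors from stem cells, by 0.34 ± 0.06 (adjusted p = 0.00296). Dntt was also among those that rose. Ccr7, the chemokine receptor of thymus and lymph node homing, fell by 1.14 ± 0.14 on the log2 scale (adjusted p = 0.000114), from 6.04, 6.04 and 7.42 to 2.58, 1.85 and 3.02 CPM in HSC and from 8.85, 8.17 and 9.89 to 5.59, 5.16 and 3.87 CPM in HPC. Lck, the proximal T-cell kinase, fell by 0.52 ± 0.10 on the log2 scale, and in HSC its WT and hom libraries overlapped.

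Stem-cell identity genes that were called were mostly lower, with 8 of 31 that fell and 1 that rose, and a median of -0.17. Taken by population, 7 fell in HPC and none in HSC, and 4 members were called for a difference between the populations. Mycn, a MYC-family factor, fell by 0.47 ± 0.04 on the log2 scale, from 163 to 168 CPM down to 94.3 to 98.1 CPM in HPC and from 303 to 319 CPM down to 264 to 287 CPM in HSC. Tie1, a receptor kinase, was at 101 to 106 CPM in WT HPC and 63.4 to 70.6 CPM in hom HPC, while its HSC libraries overlapped. Hmga2, a chromatin protein tied to self-renewal, rose by 0.62 ± 0.07, from 37.2 to 40.0 CPM up to 73.4 to 82.1 CPM in HPC with overlap in HSC, and 5.61% of its exon length is shared with another gene. Procr, the gene of the sort marker CD201, was at 39.9 to 53.6 CPM in WT HSC and 35.2 to 62.0 CPM in hom HSC, and changed by 0.10 ± 0.16 (adjusted p = 0.784). Kit changed by 0.16 ± 0.05 (adjusted p = 0.0726). Slamf1, the gene of CD150, fell by 0.42 ± 0.12 on the log2 scale (adjusted p = 0.0433), and the call was lost in 7 of 12 fits that left out 1 library, with adjusted p up to 0.14 without HPC WT replicate 3. The count of identity genes that fell was 4 to 12 when single libraries were left out: it was 4 without HPC WT replicate 3 and 5 without HSC WT replicate 2 or 3 or HPC hom replicate 1 or 3.

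Myeloid genes that were called in the average were mostly higher, and by population most of these calls were in HPC. Of neutrophil genes 4 of 17 rose and none fell, with a median of 0.48: Itgam, the CD11b integrin, at 0.51 ± 0.08, Prtn3, proteinase 3, at 0.52 ± 0.10, the transcription factor Gfi1 at 0.52 ± 0.12 and the G-CSF receptor Csf3r at 0.31 ± 0.09. Taken by population 9 rose in HPC and 1 in HSC, and the difference between the populations passed the test for 0 of the 17. The summed level of the whole list was 604 to 618 CPM in WT HSC and 714 to 729 CPM in hom HSC, and 2209 to 2303 CPM in WT HPC and 3378 to 3627 CPM in hom HPC, so the sum was higher in hom without overlap in both. The sum is weighted to the most abundant members, and the per-gene mean log2 level in HSC overlapped, with 1 hom library above all WT libraries and 1 below. The mature neutrophil markers Lcn2 and Ly6g were at 0 counts in all libraries, which, as for Ly6a, does not show that they were not expressed. Without single libraries, Gfi1 lost its call in 7 of 12 fits and Csf3r in 11 of 12. Of monocyte and macrophage genes 5 of 17 rose and 2 fell in the average. By population 1 rose and 2 fell in HSC, 9 rose and 0 fell in HPC, and 7 were called for a difference. The per-gene mean log2 level of this list was below all WT libraries in all 3 hom HSC libraries and above all WT libraries in all 3 hom HPC libraries. Lyz2, lysozyme, was at 178 to 194 CPM in WT HPC and 325 to 389 CPM in hom HPC, but at 142 to 152 CPM in WT HSC and 133 to 147 CPM in hom HSC. Adgre1, the macrophage antigen F4/80, rose by 0.88 ± 0.12 (adjusted p = 0.000243), and Ms4a6c rose by 0.53 ± 0.11 in HSC and 0.54 ± 0.11 in HPC, with 21.3% of its exon length shared with another gene. The summed level of the monocyte list was 261 to 276 CPM in WT HSC and 244 to 285 CPM in hom HSC, which overlap, and 530 to 582 CPM in WT HPC and 897 to 1013 CPM in hom HPC, which do not. The part of myeloid cells in the other changes in HPC was not tested.

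Antigen-presentation genes went both ways. Of 22 dendritic-cell and MHC class II genes 4 rose and 5 fell, and 3 fell without HPC WT replicate 3 or HPC hom replicate 1. H2-Aa, a class II alpha chain, fell with H2-Eb1, by 2.11 ± 0.23 on the log2 scale (adjusted p = 4.62e-05), and it too is annotated on other contigs. Its levels were 2.10, 3.00 and 4.41 CPM in WT HSC and 0.774, 0.927 and 1.58 CPM in hom HSC, and 7.36, 7.28 and 7.13 CPM in WT HPC and 0.970, 1.67 and 0.755 CPM in hom HPC, without overlap. Ccl22, a chemokine of activated dendritic cells, fell by 1.25 ± 0.17 on the log2 scale, and Fscn1 and Cd83, which mark maturing dendritic cells, fell as well. The members that rose were Flt3 and the MHC class II genes H2-DMa, H2-Ob and H2-Oa, which are annotated on other contigs as well. Het HPC held H2-Aa at 4.34 to 7.72 CPM and Ccl22 at 11.1 to 19.6 CPM, and WT HPC held Ccl22 at lower levels than every het HPC library.

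Interferon-response genes rose mainly in HSC. Of 31 tested members 12 rose in the average and none fell, with a median of 0.18. By population 16 rose in HSC and 1 in HPC, and 6 were called for a difference. Such counts by population depend on the model fitted to both populations together. Over all genes that model called 884 in HSC and 639 in HPC, and fits of each population apart called 155 and 1192. Ifi27, a mitochondrial interferon-induced protein, was at 189 to 227 CPM in WT HSC and 321 to 352 CPM in hom HSC, but at 193 to 200 CPM in WT HPC and 204 to 209 CPM in hom HPC. Mx2, an interferon-induced GTPase, moved in both, from 15.1, 19.2 and 15.2 to 19.8, 21.1 and 24.7 CPM in HSC and from 25.5, 22.4 and 23.4 to 36.2, 36.9 and 36.2 CPM in HPC, a rise of 0.51 ± 0.08 (adjusted p = 0.000705). With a single genotype effect for both populations in place of separate group means, 3 interferon genes were called instead of 12. Of the IFI200 and Toll-like receptor genes 5 of 19 rose, Ifi209, Tlr7, Ifi213, Ifi204 and Ifi208. Taken by population 4 rose in HSC and 5 in HPC, with medians of 0.04 and 0.36, and the difference between the populations passed the test for 0 of the 19. Ifi213 rose by 1.22 ± 0.16, from 19.5 to 28.7 CPM up to 61.6 to 112 CPM in HSC and from 52.9 to 57.0 CPM up to 76.5 to 106 CPM in HPC.

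Cell-division genes fell in HSC. Of 26 genes of G2 phase and mitosis 5 fell in the average (Ccnb1, Nusap1, Ccna2, Prc1 and Aurka) and none rose. By population 13 fell in HSC and none in HPC, and 3 differed between populations. These counts by population also depend on the model fitted to both populations together. Ccnb1, cyclin B1, was at 93.8 to 94.5 CPM in WT HSC and 64.9 to 69.2 CPM in hom HSC, and at 68.5 to 80.0 CPM in WT HPC and 71.6 to 76.2 CPM in hom HPC. The first pair of groups did not overlap and the second did. None of 25 S-phase genes was called by edgeR in the average, where 2 were lower at an unadjusted p under 0.05, and DESeq2 called 0 and limma 1. With a single genotype effect for both populations 1 mitotic gene was called instead of 5, and the count was 3 without HPC WT replicate 3 or HPC hom replicate 1 and 8 without HSC hom replicate 3.

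Other groups gave smaller counts. Of 15 mast-cell, basophil and eosinophil genes 3 rose (Il5ra, Cd200r3 and Siglecf) and 1 fell. The Siglecf call was lost in 5 of 12 fits that left out 1 library, and 5 genes rose without HSC hom replicate 3. The gene that fell, Fcer1a, the IgE receptor alpha chain, was at 0.154 to 0.401 CPM in WT HSC and at 0 counts in hom HSC, and at 11.6 to 18.2 CPM in WT HPC and 6.74 to 10.4 CPM in hom HPC. Of 16 erythroid genes Hemgn and Car2 fell (12.5% called), and of 22 megakaryocyte genes 2 fell (9.09% called), among them the thrombin receptor F2r. The megakaryocyte share was near the 6.38% of all tested genes. No member of either list passed the test for a rise in the average. The sign was positive for 16 of the 22 megakaryocyte genes and 5 of the 16 erythroid genes, and by population 1 megakaryocyte gene rose in HSC and 2 erythroid genes rose in HPC. Among cytokine receptors and feedback genes 5 of 27 rose and 6 fell, and 2 rose without HPC WT replicate 3 or HPC hom replicate 1. The interleukin-6 receptor Il6ra rose by 0.53 ± 0.08 and the survival gene Bcl2 fell by 0.33 ± 0.05 on the log2 scale, both without overlap in either population. Of 8 GIMAP genes, which encode GTPases of lymphocyte survival, Gimap3 rose by 1.91 ± 0.27 and Gimap4 by 0.43 ± 0.07, and Gimap5 fell by 0.28 ± 0.08 on the log2 scale, a call lost in 7 of 12 fits that left out 1 library. Of 23 genes of lipid handling and collagen maturation 4 fell and none rose. Serpinh1, the collagen chaperone HSP47, fell by 2.25 ± 0.29 on the log2 scale, from 8.24, 12.7 and 12.2 to 2.73, 3.50 and 5.84 CPM in HSC and from 2.14, 2.99 and 2.44 to 0.628, 0.261 and 0.0503 CPM in HPC. Pxdn, peroxidasin of the basement membrane, fell by 2.95 ± 0.45 on the log2 scale, with 16.4% of its exon length shared with another gene. Bone targets of RUNX2 were mostly too low to test: 8 of 18 were tested, 2 fell (Fgfr3 and Tnfrsf11b), and Ibsp and Dmp1 had 0 counts throughout, and the Tnfrsf11b call was lost in 7 of 12 fits that left out 1 library. Of 6 tested stromal and endothelial genes Pdgfrb and Kdr fell, and Col3a1, Cxcl12, Dcn and Lum were at 0 counts, with summed levels of 200 to 204 CPM in WT HSC, 173 to 189 CPM in hom HSC, 342 to 380 CPM in WT HPC and 362 to 378 CPM in hom HPC. As for Ly6a, a count of 0 for these genes or for Ibsp and Dmp1 does not show that they were not expressed. None of 21 cholesterol-synthesis genes was called by edgeR, where 2 were lower at an unadjusted p under 0.05, nor by DESeq2 or limma.

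**Figure D4:**
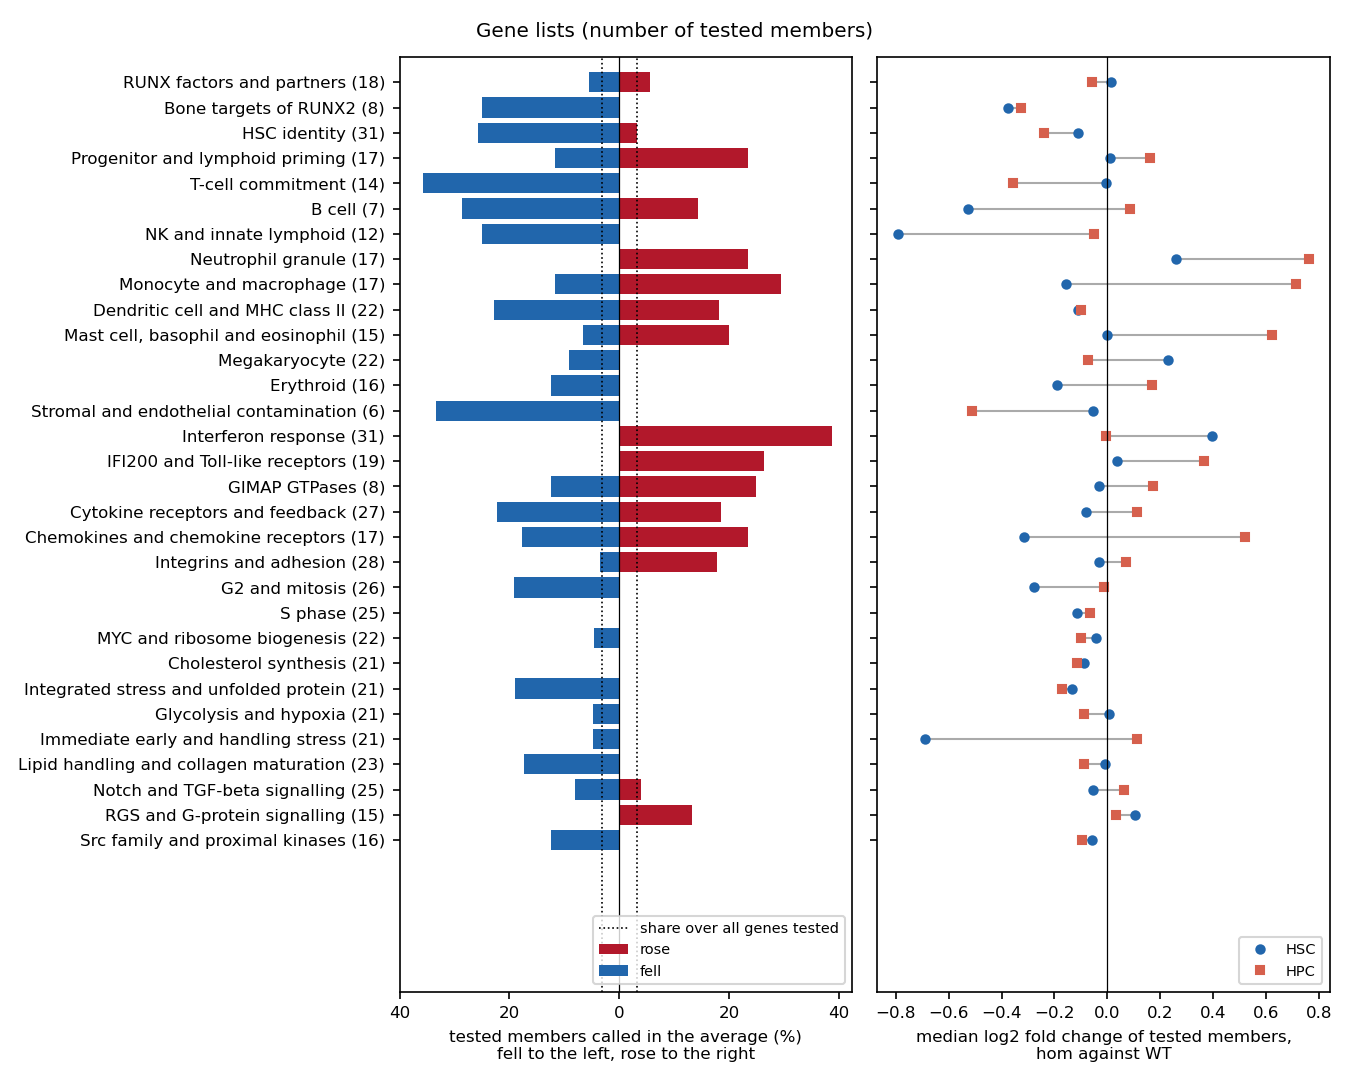
Left, share of the tested members of each list that fell (blue, to the left) or rose (red, to the right) in the average, with dotted lines at the share over all genes tested (3.21% lower, 3.17% higher). Right, median log2 fold change of tested members in HSC (blue circles) and HPC (red squares), which lie apart for the monocyte list (-0.16 and 0.71) and the interferon list (0.40 and -0.01).

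The averaged effect hides genes on which the populations differed. The difference in the hom effect was called for 344 genes (2.28%), of which 251 were not called in the average, and 293 had opposite signs in HSC and HPC. Every fit that left out 1 library gave a count more than 1.5 times away from 344, from 80 without HPC WT replicate 2 to 1121 without HSC hom replicate 3. Ccr2, the monocyte chemokine receptor, was at 2.92, 4.32 and 2.93 CPM in WT HSC and at 1.14, 0.927 and 0.718 CPM in hom HSC. In HPC it went the other way, from 38.6, 42.0 and 35.1 CPM in WT to 68.2, 65.8 and 64.0 CPM in hom. Both moves were without overlap, and the average of -0.55 ± 0.12 describes neither population. Zfp532, a zinc-finger gene, fell by 3.13 ± 0.29 on the log2 scale in HPC and 0.74 ± 0.16 in HSC. Mgam, maltase-glucoamylase, was at 2.24 to 3.05 CPM in WT HPC and 10.5 to 14.5 CPM in hom HPC, and its HSC libraries, at 0.413 to 1.35 CPM, overlapped between genotypes. Abcd2, a peroxisomal fatty acid transporter, was at 12.4 to 14.3 CPM in WT HPC and 35.5 to 41.9 CPM in hom HPC, with overlap in HSC, and its call in the average was lost in 8 of 12 fits that left out 1 library. Gpr174, an X-linked lysophosphatidylserine receptor of lymphocytes, was at 0.0411 to 0.201 CPM in WT HSC and 1.22 to 1.29 CPM in hom HSC, and at 3.64 to 4.69 CPM in WT HPC and 5.54 to 7.30 CPM in hom HPC.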

How the data were processed

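The authors deposited raw gene counts, 1 table of 49997 genes for each population. Per the submitters' processing notes, the tools were Trim Galore 0.6.10, STAR 2.7.11a and featureCounts 2.0.6. Per the file headers, counts were summed over exons by gene without regard to strand, and the annotation is of mm10, whereas the notes name mm39. Coordinates are those of the tables, on mm10.

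The tables were joined by gene. Using R 4.3.3, robust quasi-likelihood F tests of edgeR 4.0.16 were fitted to the counts of 12 libraries with 1 mean for each of 4 groups, TMM factors and filterByExpr, and p-values were adjusted by Benjamini-Hochberg over 15102 tested genes. CPM use TMM factors of all 18 libraries. Values after ± are standard errors. The script was tested on simulated data. Named genes were the 12 largest changes each way among genes called in both populations, without overlap, with at least 5 CPM in the higher group and not predicted, plus up to 4 called members per list, RUNX genes, sort markers, neighbours of Runx2 and the 4 largest differences each way. Some of these genes are not reported here. Other genes of the 36 were named after their values were seen. The members and lists were chosen with earlier results of these data known. Alternatives used other normalizations, filters, DESeq2 1.42.0, limma 3.58.1, a replicate block, other models and each library left out. CUT&Tag samples were not analysed here.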

Additional observations from a re-analysis of the deposited data

Results flagged for a closer look

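Named genes whose hom effect differed between the populations by the interaction test of edgeR are listed with the HSC-minus-HPC difference in log2 fold change. The difference was positive for Hdgfl3 (0.58), Myh10 (0.75), Mycn (0.61), Tie1 (0.64), Thy1 (1.03), Ifi27 (0.62), Oasl1 (0.66), Yes1 (1.52), Zfp532 (2.39), Gpr174 (2.67) and Dpysl5 (3.84). It was negative for Enpp4 (-0.37), Hmga2 (-0.80), Lyz2 (-1.04), F13a1 (-1.77), Gimap4 (-0.63), Ccnb1 (-0.48), Nusap1 (-0.45), Serpinf1 (-1.28), Abcd2 (-1.79), Mgam (-2.05), Ccr2 (-2.65) and Clec4a1 (-2.85). Xist, the RNA that coats the inactive X chromosome, had a fitted difference of 4.69, which rests on 1 count over the WT HSC libraries and 34 counts over the hom HSC libraries and is no measure of size. Its levels were 0 to 0.0411 CPM in WT HSC, 0.211 to 1.15 CPM in hom HSC and 3757 to 4742 CPM in hom HPC.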

How the results depend on the processing

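Runx2 fell in every alternative, with log2 fold changes of -2.36 to -2.30. Of the other named genes called in the average, 32 lost the call with an unchanged sign in at least 1 of 21 alternatives, and 75 did not. Ccr2, counted among the 75, reversed to 0.13 (adjusted p = 0.90) with a single genotype effect for both populations. It thus lost its call there too. The 963 calls in the average (478 higher, 485 lower) became 2335 (1003, 1332) with limma-voom and sample weights, 1652 (757, 895) without a filter on low counts, 228 (108, 120) for changes past a fold of 1.2, and 641 to 1510 (320 to 726 higher, 303 to 784 lower) when single libraries were left out. The 36 calls in both populations (16, 20) became 115 (47, 68) with DESeq2, 142 (55, 87) with limma-voom, 223 (96, 127) without the filter, 75 (29, 46) with all 18 libraries, 14 (7, 7) with each population fitted alone and 15 to 98 (7 to 39 higher, 7 to 59 lower) with single libraries left out. All 36 stayed among the calls with DESeq2, limma-voom and no filter. The 344 calls for a difference became 844 with DESeq2, 2063 with limma-voom, 789 without the filter, and 80 to 1121 with single libraries left out. The cause of these changes was not tested.

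Same-numbered WT and hom libraries had deviations that correlated at 0.0408 to 0.146 in HSC and 0.0339 to 0.161 in HPC. Differently numbered ones correlated at -0.13 to -0.00087 in HSC and -0.115 to 0.0807 in HPC. The labels do not say that the numbers mark pairs, and the main fit did not take them as pairs. Whether same-numbered libraries share a batch was not tested. With a replicate block, 1329 genes were called in the average, 85 in both populations (39, 46) and 637 for a difference. Every HSC library correlated best with its own number, and not every HPC library did.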

Other observations

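The split of called genes into higher and lower was uneven on several chromosomes. Of 512 tested genes on the X chromosome 36 fell and 8 rose in the average, which is 8.59% called beside 6.38% of all tested genes. Tlr7 and Gpr174 were among those that rose and Mcf2 among those that fell. On chromosome 9, 15 rose and 39 fell, on chromosome 11, 47 rose and 25 fell, and on chromosome 19, 19 rose and 9 fell. On chromosome 8, 28 of 817 tested genes were called (3.43%), and on chromosome 1, 38 rose and 31 fell of 879 tested.

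Integrin and adhesion genes that were called were mostly higher, with 5 of 28 that rose (among them Itga9, Itgam, Itgb2 and Itgb7) and Esam that fell, a call lost in at least 5 of 12 fits that left out 1 library. Itgb2, the common beta-2 chain of leukocyte integrins, was at 107 to 113 CPM in WT HSC and 132 to 153 CPM in hom HSC, and at 131 to 136 CPM in WT HPC and 135 to 152 CPM in hom HPC. Of 21 genes of the integrated stress and unfolded-protein responses 4 fell and none rose, and 1 to 6 fell when single libraries were left out, with 1 in 7 of the 12 fits. Psat1, Asns and Xbp1 lost their calls in 8, 9 and 10 of the 12 fits, and Sesn2 in none. Sesn2, a stress-induced sestrin, was at 27.8 to 28.8 CPM in WT HSC and 24.3 to 27.2 CPM in hom HSC, and at 44.3 to 50.8 CPM in WT HPC and 32.6 to 35.2 CPM in hom HPC, without overlap in either population. Yes1, a Src-family kinase, fell by 1.46 ± 0.14 on the log2 scale, from 15.9 to 18.5 CPM down to 8.15 to 13.2 CPM in HSC and from 5.25 to 6.53 CPM down to 0.938 to 1.48 CPM in HPC, with 14.5% of its exon length shared with another gene.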
